A study of Mus musculus with 3 samples.

Results

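The genes of the beta-cell hormones insulin and amylin were chosen by name, as the lines Ins1, Ins2 and Iapp of the expression table. They are 3 of 21899 gene symbols in the table, and all 3 had reads in every library. Reads per gene came from RNA sequencing of MIN6 cells, a mouse insulinoma line that secretes insulin. The design has 3 groups with 1 library each: cells given a negative control siRNA (siNC), cells given an siRNA against Srsf1 (siSRSF1, under the older name ASF in part of the labels) and cells given an siRNA against Srsf2 (siSRSF2, older name SC35). SRSF1 and SRSF2 are SR proteins, which bind pre-mRNA and promote splicing, and the series sets each siRNA against the control. All groups share the cell line and the transfection of an siRNA, and the sources used here give no further allele, agent, time or culture number.

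Insulin is made as preproinsulin, which enters the endoplasmic reticulum through its signal sequence, folds with disulphide bonds and is cut by prohormone convertases and carboxypeptidase E into insulin and C-peptide. The mouse has a pair of insulin genes. Ins2 keeps the intron within the coding sequence that other mammalian insulin genes have, and Ins1 lacks that intron. Iapp encodes the precursor of amylin (islet amyloid polypeptide), an amidated peptide of the calcitonin family that is packed into the same granules and released with insulin. In beta cells the promoters of these genes are bound by shared regulators such as PDX1 and NEUROD1.

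In GRCm38, Ins1 (ENSMUSG00000035804) lies on chromosome 19 from 52264297 to 52265476 on the plus strand, with 1 transcript in GENCODE M21. Ins2 (ENSMUSG00000000215) lies on chromosome 7 from 142678656 to 142743381 on the minus strand. Its 9 transcripts include long forms with distant upstream exons, while a short transcript with the coding sequence has 478 bases. Iapp (ENSMUSG00000041681) lies on chromosome 6 from 142298423 to 142303961 on the plus strand, with 2 transcripts, and is the only member that overlaps another annotated gene. That gene is Slco1a5, an organic anion transporter on the opposite strand.

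The first 300 bases of the coding sequence of each insulin gene are shown because their likeness bears on how reads were shared out between them. They are credited to GENCODE M21, and capitals mark the bases that differ between Ins1 and Ins2 in their alignment or stand in its gap. The whole coding sequence of Iapp is given below them in lower case throughout.
Ins1: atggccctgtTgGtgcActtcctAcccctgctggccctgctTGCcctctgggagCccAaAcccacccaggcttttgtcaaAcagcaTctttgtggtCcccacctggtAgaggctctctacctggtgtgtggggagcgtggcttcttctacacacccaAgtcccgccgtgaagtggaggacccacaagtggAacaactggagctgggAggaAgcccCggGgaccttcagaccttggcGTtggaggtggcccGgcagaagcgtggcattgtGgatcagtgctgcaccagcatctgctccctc
Ins2: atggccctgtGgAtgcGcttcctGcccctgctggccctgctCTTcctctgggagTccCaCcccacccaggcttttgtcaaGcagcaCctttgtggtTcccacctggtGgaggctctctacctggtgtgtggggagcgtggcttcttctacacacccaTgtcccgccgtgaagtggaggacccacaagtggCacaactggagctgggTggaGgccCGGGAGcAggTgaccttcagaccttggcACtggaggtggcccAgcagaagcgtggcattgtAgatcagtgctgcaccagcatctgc
Iapp: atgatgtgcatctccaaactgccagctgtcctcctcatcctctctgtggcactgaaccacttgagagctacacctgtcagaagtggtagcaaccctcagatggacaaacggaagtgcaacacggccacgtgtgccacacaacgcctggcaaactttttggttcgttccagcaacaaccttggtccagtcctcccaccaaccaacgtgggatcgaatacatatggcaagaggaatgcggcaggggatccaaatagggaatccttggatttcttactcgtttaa
The Ins1 coding sequence spans 52264624 to 52264950 (327 bases), that of Ins2 142678713 to 142679533 with its intron (333 bases) and that of Iapp 142298849 to 142303504 with its intron (282 bases). Of 327 aligned bases of the insulin coding sequences 302 were identical (92.4%), with 6 bases in a gap. The longest exact run shared by the Ins1 transcript and the short Ins2 transcript was 56 bases, and it lies within both coding sequences. Of windows of 50 bases, 0.691% of those in Ins1 and 1.63% of those in the short Ins2 transcript were found exactly in a transcript of the other gene. With windows of 25 bases these shares were 6.26% and 14.3%, and with windows of 75 bases none was shared. The labels and notes do not state the read length or what was done with reads that match both genes. Ins2 had 314837 reads in siNC beside 23349 for Ins1, so a small shared part of Ins2 reads can weigh heavily on Ins1. Exact windows also leave out reads placed with mismatches. The counts of Ins1 are therefore uncertain, possibly by more than these shares, and how far they are independent of Ins2 was not tested. Apart from Ins1 and Ins2 with each other, no gene in GENCODE M21 shared an exact window of 50 bases with any of the 3 genes.

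The bases before the transcription start are shown for Ins1 and Iapp, the members with an entry in the RefSeq promoter set (GRCm38.p6), because the regulators described further on bind such elements. Capitals mark CATCTG, a form of E-box, and TAAT, the core of the A-box that homeodomain factors bind, on either strand.
Ins1, chr19:52264047-52264296, plus strand: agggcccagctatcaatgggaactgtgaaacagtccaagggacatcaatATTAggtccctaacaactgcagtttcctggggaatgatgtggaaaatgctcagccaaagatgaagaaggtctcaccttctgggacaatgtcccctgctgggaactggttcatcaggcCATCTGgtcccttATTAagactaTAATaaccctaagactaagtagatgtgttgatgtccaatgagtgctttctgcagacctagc
Iapp, chr6:142298175-142298424, plus strand: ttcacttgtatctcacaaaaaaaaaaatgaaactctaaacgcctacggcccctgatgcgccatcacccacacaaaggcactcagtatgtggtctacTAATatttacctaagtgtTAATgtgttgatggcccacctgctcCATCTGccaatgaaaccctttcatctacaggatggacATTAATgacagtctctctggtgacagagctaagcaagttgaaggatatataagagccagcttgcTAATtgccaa
Each of these windows of 250 bases held 1 match to CATCTG. The shorter motif TAAT matched 3 times in Ins1 and 5 times in Iapp, where a pair of the matches on opposite strands overlap. Over 32851 promoter windows of the same length, 14.4% held CATCTG, 54.9% held TAAT and 8.91% held both. These matches are descriptions of letters and not sites.

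The libraries held 12688334 (siNC), 14478045 (siSRSF1) and 14682576 (siSRSF2) reads. The target of each siRNA had fewer reads in its own library, with a Srsf1 ratio of 0.683 (95% counting interval 0.652 to 0.716) for siSRSF1 and a Srsf2 ratio of 0.343 (0.308 to 0.381) for siSRSF2. Srsf1 was also below siNC in siSRSF2, at 0.847 (0.811 to 0.884), and Srsf2 stood at 0.957 (0.884 to 1.04) in siSRSF1. Of 11 beta-cell markers all had reads in every library, but Ucn3 had 1 to 9. Slc2a2 had 42 reads in siNC, 114 in siSRSF1 and 7 in siSRSF2. Its ratios to siNC were 2.37 (1.66 to 3.48) in siSRSF1 and 0.149 (0.053 to 0.314) in siSRSF2. The other markers did not share this pattern as a set. Of the 10 beta-cell markers with enough reads to compare, 6 lay above siNC and 4 below in siSRSF1, with a median log2 ratio of 0.19. In siSRSF2 4 lay above and 6 below, with a median of -0.15. Among markers of other cells, the alpha-cell hormone gene Gcg had 1494 to 2029 reads, while the alpha-cell marker Irx1 had 0 reads throughout. The delta-cell factor Hhex had 0 to 2 reads beside 199 to 339 for Sst, and the 8 acinar and ductal markers summed to 1 to 5 reads. The 7 stromal, endothelial and immune markers summed to 66, 248 and 66 reads in siNC, siSRSF1 and siSRSF2, of which 56, 232 and 55 were Cd68. The part of these cells in the values below was not tested. In bulk RNA, fewer cells that express a gene and less of its RNA per cell cannot be told apart. No value has a replicate, so no test between groups was possible, and every interval covers the counting error of these libraries only.

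The insulin genes and Iapp went opposite ways in the siSRSF2 library. Ins2 took 3.47% of all reads there against 2.48% in siNC, while Iapp took 1.48% against 2.0%. In the siSRSF1 library Ins2 stayed at 2.49%, Ins1 was higher and Iapp lower. Together the 3 genes took 4.66% of reads in siNC, 4.36% in siSRSF1 and 5.22% in siSRSF2.

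Ins2 had 314837 reads in siNC, 361132 in siSRSF1 and 508871 in siSRSF2. It had more reads than any other gene in all 3 libraries, so 1 in 28.9 reads of the siSRSF2 library came from Ins2. After TMM scaling (a trimmed mean of log ratios between libraries), its levels were 25048 CPM (read counts over the scaled library size) in siNC, 25199 in siSRSF1 and 33985 in siSRSF2. The siSRSF2 library stood above the other two, which lay close together. Its ratio was 1.006 (1.001 to 1.011) for siSRSF1 to siNC, 1.36 (1.35 to 1.36) for siSRSF2 to siNC and 1.35 (1.34 to 1.35) for siSRSF2 to siSRSF1. The first of these changed direction with other settings. It was 0.984 with upper-quartile scaling, 0.963 after correction for transcript GC content and 0.895 after correction for length.

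Ins1 had 23349 reads in siNC, 33513 in siSRSF1 and 39880 in siSRSF2. These reads were 0.184% (0.182 to 0.186), 0.231% (0.229 to 0.234) and 0.272% (0.269 to 0.274) of the libraries, so siNC was the lowest and siSRSF2 the highest. The scaled levels were 1858, 2338 and 2663 CPM. By reads Ins1 ranked 31st among all genes in siNC, 20th in siSRSF1 and 15th in siSRSF2. Its ratio to siNC was 1.26 (1.24 to 1.28) in siSRSF1 and 1.43 (1.41 to 1.46) in siSRSF2, and the ratio between the siRNA libraries was 1.14 (1.12 to 1.16). With length correction the siSRSF1 ratio was 1.09, the lowest of its alternatives.

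Iapp had 253196 reads in siNC, 236923 in siSRSF1 and 217870 in siSRSF2, second only to Ins2 in every library. These were 2.0% (1.99 to 2.0), 1.64% (1.63 to 1.64) and 1.48% (1.48 to 1.49) of all reads. The order ran opposite to that of Ins1, with siNC the highest. The scaled levels were 20144, 16532 and 14550 CPM. The ratio to siNC was 0.821 (0.816 to 0.825) in siSRSF1 and 0.722 (0.718 to 0.726) in siSRSF2, and siSRSF2 stood at 0.880 (0.875 to 0.885) of siSRSF1. The siSRSF1 ratio ranged from 0.705 with length correction to 0.899 with GC correction.

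**Figure D1:**
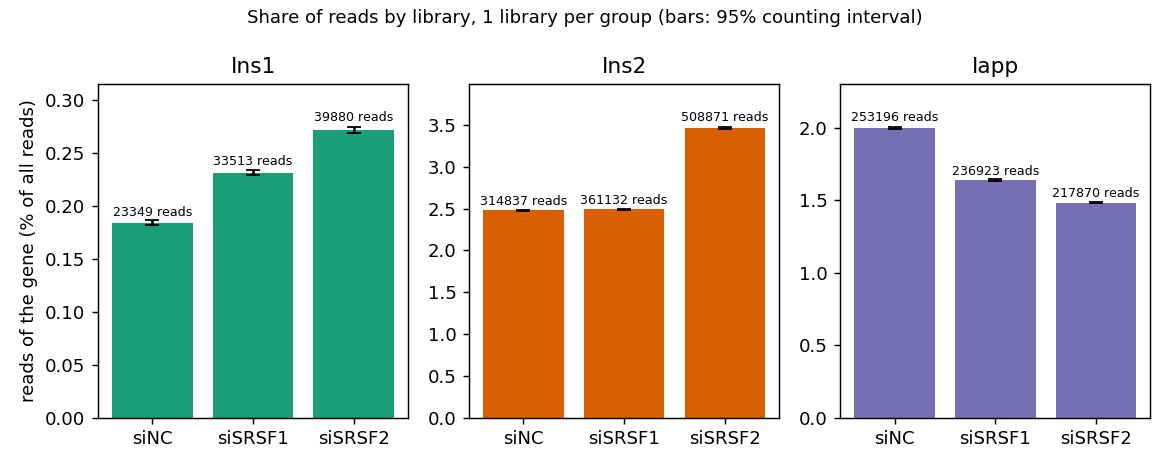
Share of all reads (percent, axis from 0 in each panel) taken by Ins1, Ins2 and Iapp in the 3 libraries, 1 library per group, with 95% counting intervals and the read numbers above the bars. Ins1 goes from 0.184% in siNC to 0.272% in siSRSF2, Ins2 is at 3.47% in siSRSF2 only, and Iapp goes from 2.0% in siNC to 1.48% in siSRSF2.

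None of the 3 genes passed a 2-fold size rule in any comparison. That rule (with an interval that excludes 1) was met on the higher side by 2.4% of 11602 genes compared in siSRSF1 to siNC, and on the lower side by 1.2%. In siSRSF2 to siNC, 2.51% were higher and 1.04% lower by it among 11611 genes. In siSRSF2 to siSRSF1 it was met by 2.4% on the higher side and 1.96% on the lower side of 11705 genes. At a 1.2-fold rule, Ins1 was higher and Iapp lower in siSRSF1, where 18.1% of genes were higher and 15.7% lower. Both calls were lost under an alternative, that of Ins1 with length correction (1.09) and that of Iapp with GC correction (0.899). In siSRSF2 to siNC, Ins1 and Ins2 were higher and Iapp was lower, against 19.7% higher and 16.5% lower over all genes. Between the siRNA libraries only Ins2 passed, on the higher side, where 20.9% of genes did so and 19.3% were lower. Differences of this size were therefore common in these libraries.

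Set against all compared genes, 9.72% had a ratio of siSRSF2 to siNC at or above that of Ins1 and 13.1% at or above that of Ins2. For Iapp, 7.91% of genes were as low or lower in that comparison. In siSRSF1 to siNC, 16.4% of genes were at or above Ins1 and 17.4% at or below Iapp. The insulin genes stood nearer the top among abundant genes. Of 35 genes with at least 20000 reads in each library (a floor set so that Ins1 is included), Ins1 had the second highest and Ins2 the third highest ratio of siSRSF2 to siNC, after Cck, a gut and neuronal peptide hormone, at 2.1. Of the 32 abundant genes other than the members, 28 lay below siNC in siSRSF2, with a median ratio of 0.796. The Iapp ratio of 0.722 was the 9th lowest of the 35. In siSRSF1, where the median of the other 32 was 0.966, Ins1 was again second after Cck and Iapp was 6th from the lowest.

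**Figure D2:**
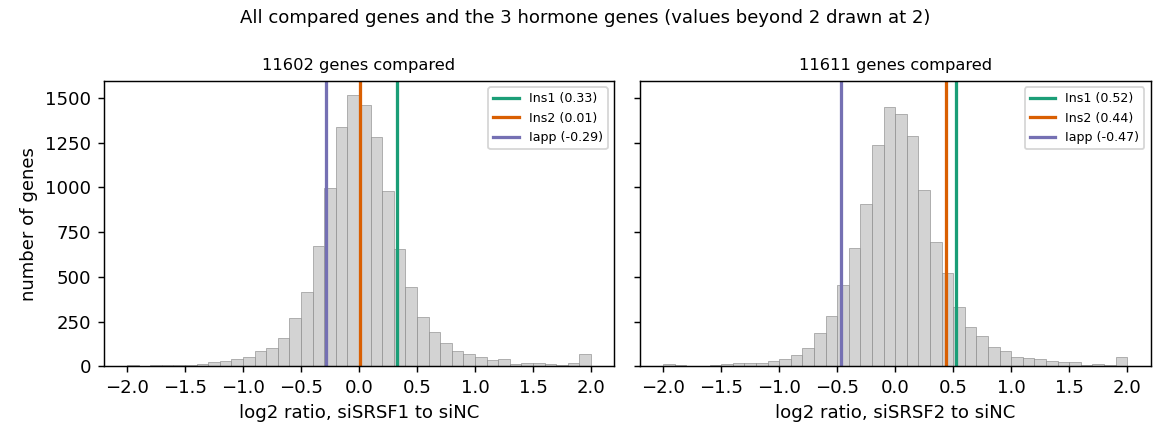
Number of genes (y axis) by log2 ratio (x axis) of siSRSF1 to siNC, 11602 genes, and of siSRSF2 to siNC, 11611 genes, with values beyond 2 drawn at 2. Coloured lines mark the members, whose log2 ratios were 0.33 (Ins1), 0.01 (Ins2) and -0.29 (Iapp) in siSRSF1 and 0.52, 0.44 and -0.47 in siSRSF2.

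Ratios between the members within a library do not depend on how libraries are scaled. In reads, Iapp stood at 0.804 of Ins2 in siNC, 0.656 in siSRSF1 and 0.428 in siSRSF2. The ratio of Iapp to Ins2 was thus at 0.532 (0.529 to 0.536) of its siNC value in siSRSF2 and at 0.816 (0.810 to 0.822) in siSRSF1. Relative to Ins1, Iapp had 10.8 times the reads in siNC, 7.07 times in siSRSF1 and 5.46 times in siSRSF2, which is 0.652 (0.641 to 0.664) and 0.504 (0.495 to 0.513) of the siNC value. Iapp made up 42.8% of the reads of the 3 genes in siNC, 37.5% in siSRSF1 and 28.4% in siSRSF2. Among all 595 pairs of the 35 abundant genes, 9.24% diverged as far as Iapp and Ins2 did in siSRSF2 and 6.72% as far as Iapp and Ins1. The same shares in siSRSF1 were 39.5% and 15.1%. GC correction moved the siSRSF1 value of Iapp to Ins2 to 0.934 and the siSRSF2 value to 0.556.

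Ins1 gave 6.90% (6.82 to 6.99) of insulin reads in siNC, 8.49% (8.41 to 8.58) in siSRSF1 and 7.27% (7.20 to 7.34) in siSRSF2. The siSRSF1 library was the highest and the other two lay nearer to each other. The balance between the insulin genes thus differed more from siNC in siSRSF1 than in siSRSF2. The ratio of Ins1 to Ins2 was 1.25 (1.23 to 1.27) times its siNC value in siSRSF1 and 1.06 (1.04 to 1.07) times in siSRSF2. Of the abundant pairs, 35.1% diverged as far in siSRSF1 and 81.5% in siSRSF2. Between the siRNA libraries the ratio in siSRSF2 was 0.845 (0.832 to 0.857) of that in siSRSF1.

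Levels of different genes can be compared only per length, and the length used turned the order of Iapp and Ins2 in siNC, though not in the siRNA libraries. The deposited FPKM values (reads divided by gene length and by the library total) of Iapp were 20488 in siNC, 16801 in siSRSF1 and 15235 in siSRSF2. Those of Ins2 were 18912, 19012 and 26416, and those of Ins1 1733, 2180 and 2558. By FPKM, Iapp ranked first and Ins2 second of all genes in siNC, and the order was the reverse in both siRNA libraries. Ins1 ranked 14th, 8th and 7th. The table divides Ins2 by 1312 bases, the union of the exons of all its transcripts, Ins1 by 1062 and Iapp by 974. Per length in the table, Iapp stood at 1.08 of Ins2 in siNC, 0.884 in siSRSF1 and 0.577 in siSRSF2. With the short Ins2 transcript (478 bases) and the longest one of Iapp (839 bases), the same ratios were 0.458, 0.374 and 0.244, so Ins2 led in every library. Ins1 stood at 0.0916, 0.115 and 0.0968 of Ins2 per length in the table, and at 0.0334, 0.0418 and 0.0353 with the short transcript. Which Ins2 transcripts the cells made cannot be read from counts per gene.

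**Figure D3:**
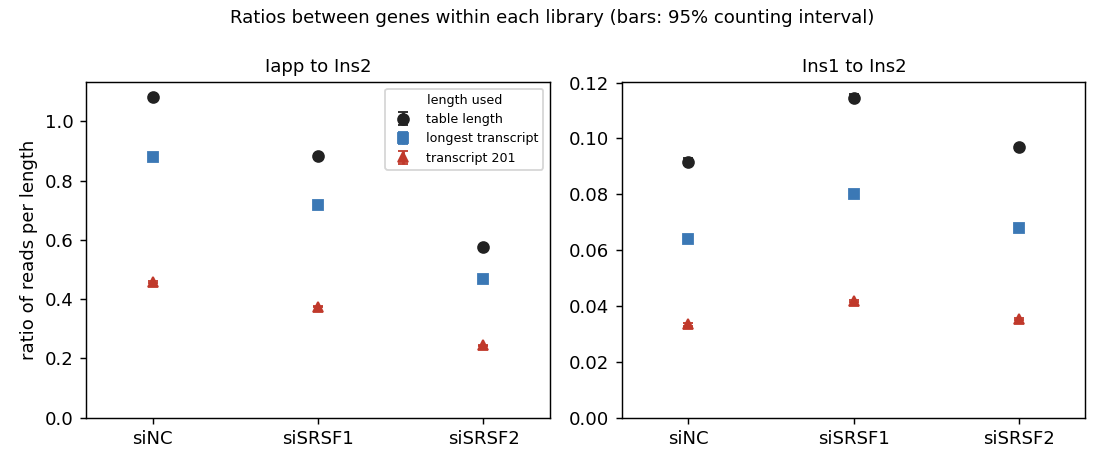
Ratio of reads per length (y axis, from 0) of Iapp to Ins2 and of Ins1 to Ins2 in the 3 libraries, with 95% counting intervals and 3 choices of gene length. Iapp to Ins2 goes down from siNC (1.08 with the length in the table) to siSRSF2 (0.577) with each length, and lies above 1 in siNC with the length in the table only.

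Transcript GC content moved with the ratios over all genes, and the members differ in it. The longest transcript had 40.5% GC for Iapp, 48.2% for Ins1 and 53.6% for Ins2. In siSRSF1 the median log2 ratio was -0.14 in the lowest of 10 equal GC classes of genes and 0.23 in the highest. Genes within 2 percentage points of Iapp had a median of -0.12 in siSRSF1, beside -0.29 for Iapp. Those near Ins1 had -0.04 beside 0.33, and those near Ins2 0.06 beside 0.01. The trend was weaker in siSRSF2, where genes near Iapp had a median of -0.04 beside -0.47, and those near Ins2 0.03 beside 0.44. After GC correction the ratios to siNC in siSRSF2 were 1.45 for Ins1, 1.35 for Ins2 and 0.752 for Iapp. In siSRSF1 they were 1.29, 0.963 and 0.899.

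**Figure D4:**
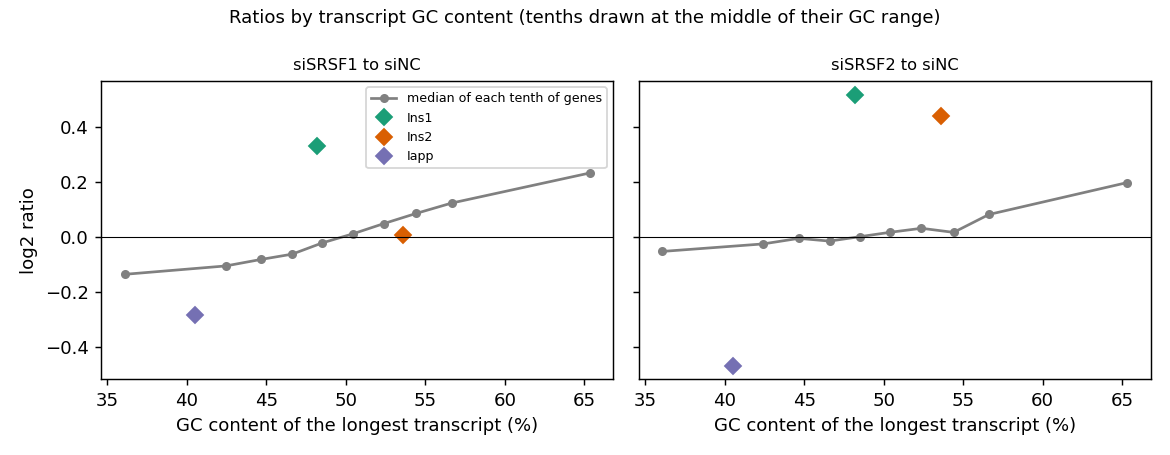
Log2 ratio to siNC (y axis) by GC content of the longest transcript in percent (x axis), with grey points for the median of each of 10 GC classes of compared genes at the middle of its range and diamonds for the members. In siSRSF2 Ins1 (0.52) and Ins2 (0.44) lie above the grey line and Iapp (-0.47) below it, while Ins2 in siSRSF1 (0.01) lies just under it.

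The genes whose pair of log2 ratios to siNC lay closest to that of each member were found among 5367 genes with at least 500 reads in each library. For Ins1 these were Ctsf, Map3k10, Ints8, Lancl1 and Map4, at distances from 0.01 to 0.04. Celf3, Gprc5b, Tfam, Zfp180 and Clasp2 were closest to Ins2, at 0.01 to 0.03. For Iapp they were Uso1, Ggps1, Arfgap1, Eef1b2 and Atp6v0e, at 0.01 to 0.02. The distance rests on 3 libraries and a shared control, and 34, 65 and 93 genes lay within 0.1 of Ins1, Ins2 and Iapp. Ins1 and Ins2 were 0.33 apart, and Iapp was 0.96 from Ins2 and 1.17 from Ins1.

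Of the transcription factors that act on the insulin genes, 13 of 20 lay above siNC in siSRSF1 and 14 of 20 in siSRSF2. Of these regulators (21 in the list, 1 with too few reads), 2 were higher by the 2-fold rule in each siRNA library and none lower. Over all genes, 2.4% were higher by it in siSRSF1 and 2.51% in siSRSF2. By the 1.2-fold rule 9 were higher and 2 lower in siSRSF1 (18.1% and 15.7% of all genes). In siSRSF2 these numbers were 11 and 3 (19.7% and 16.5% of all genes). The median log2 ratios were 0.22 in siSRSF1 and 0.32 in siSRSF2, beside 0.00 and 0.02 over all genes. After GC correction these medians were 0.10 and 0.30. Insm1, a zinc-finger factor of endocrine cells, had 1882 reads in siNC, 6103 in siSRSF1 and 5486 in siSRSF2, with ratios of 2.84 and 2.45. Mafa, which binds the insulin promoter, had 4555, 12807 and 10309 reads and ratios of 2.47 and 1.9. Nkx6-1, a homeodomain factor of beta cells, had 3165, 6850 and 7902 reads and ratios of 1.9 and 2.1. After GC correction Insm1 stayed past 2-fold in both, but Mafa in siSRSF1 (1.77) and Nkx6-1 in siSRSF2 (1.89) did not. Pdx1, the homeodomain activator of all 3 members, had ratios of 1.26 and 1.10, and Pax6, another islet homeodomain factor, of 0.955 and 0.849. Neurod1, a basic helix-loop-helix factor that binds E-boxes, lay below siNC in both, at 0.803 and 0.821.

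Of 3 genes for proteins that bind insulin mRNA, none was lower by the 1.2-fold rule in siSRSF1 and 2 were in siSRSF2. Over all genes, 15.7% were lower by it in siSRSF1 and 16.5% in siSRSF2. The median log2 ratio of the 3 genes in siSRSF2 was -0.33, beside 0.02 over all genes. Ptbp1, which stabilises insulin mRNA, had ratios of 0.967 and 0.796. Elavl4, the HuD protein that holds back insulin translation, had ratios of 0.865 and 0.660. Pabpc1, the cytoplasmic poly(A)-binding protein, had ratios of 0.969 and 0.895. None of these 3 passed 2-fold.

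Genes for taking preproinsulin and the amylin precursor into the endoplasmic reticulum and for folding them had mostly ratios below 1 in siSRSF2. Over all compared genes the median log2 ratio there was 0.02. Of the 32 abundant genes other than the members, 28 also had a ratio below 1, with a median ratio of 0.796. That class holds Hspa5, P4hb and Ero1lb, but no translocation gene, since these had at most 7567 reads in siNC. Of 22 genes of signal recognition, translocation and signal cleavage, 21 had a ratio below 1, 15 were lower by the 1.2-fold rule (16.5% of all genes) and none passed 2-fold, with a median log2 ratio of -0.35. Srpr, the signal recognition particle receptor, stood at 0.730, the channel subunit Sec61a1 at 0.586 and the translocon-associated Ssr3 at 0.701. In siSRSF1 the median of this list was -0.10. Of 12 folding genes 11 lay below siNC in siSRSF2 and 9 were lower by the 1.2-fold rule (16.5% of all genes), with a median of -0.46. Manf, an endoplasmic reticulum stress protein, was the only one past 2-fold, at 0.480 (1.04% of all genes were lower by that rule). In siSRSF1 4 of the 12 folding genes lay above siNC and 8 below, with a median log2 ratio of -0.12. The oxidase Ero1lb, which forms disulphide bonds in proinsulin, had 27387, 36400 and 22335 reads, and stood at 1.17 in siSRSF1 and 0.685 in siSRSF2. Hspa5, the chaperone BiP, stood at 0.918 in siSRSF1 and 0.693 in siSRSF2, and P4hb, protein disulphide isomerase, at 0.919 and 0.669.

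Among genes that process the precursors, 1 of 8 was higher past 2-fold in each siRNA library (2.4% and 2.51% of all genes). This was Pcsk1n, the proSAAS inhibitor of convertase 1, with 1586, 8388 and 12596 reads and ratios of 4.64 and 6.67. By the 1.2-fold rule 1 was higher and 2 lower in siSRSF1 (18.1% and 15.7% of all genes). In siSRSF2 2 were higher and 4 lower (19.7% and 16.5% of all genes). Cpe, carboxypeptidase E, stood at 1.05 and 1.33, the convertase Pcsk1 at 0.9 and 0.832, and the convertase Pcsk2 at 0.645 and 0.631. Pam, which amidates amylin, stood at 0.854 and 0.804. The 5 granule cargo genes, granins and Vgf, took 2.77% of reads in siNC, 2.51% in siSRSF1 and 2.50% in siSRSF2, less than the 3 hormone genes in every library. Chga was at 1.04 and 0.978 of siNC, Chgb at 0.649 and 0.787 and Scg2 at 0.970 and 0.799.

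Relatives of the members were scarce. Of the other insulin and relaxin family genes only Igf2 had enough reads to compare. Its counts were 627, 1713 and 1023 reads, with ratios of 2.395 (2.19 to 2.63) and 1.37 (1.24 to 1.52). Igf2 encodes a growth factor and is the nearest compared gene to Ins2 on one side of chromosome 7. In the calcitonin family of Iapp, Adm2, the precursor of intermedin, had 353, 496 and 1125 reads, and ratios of 1.23 and 2.67. Adm, the adrenomedullin precursor, had 116, 152 and 91 reads and ratios of 1.149 and 0.660. Adm2 and Iapp thus lay on opposite sides of siNC in siSRSF2, while Adm lay below siNC there, as Iapp did. In siSRSF1 Adm2 and Adm both had ratios above 1, beside 0.821 for Iapp. The interval of Adm in siSRSF1 (0.897 to 1.48) included 1.

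**Figure D5:**
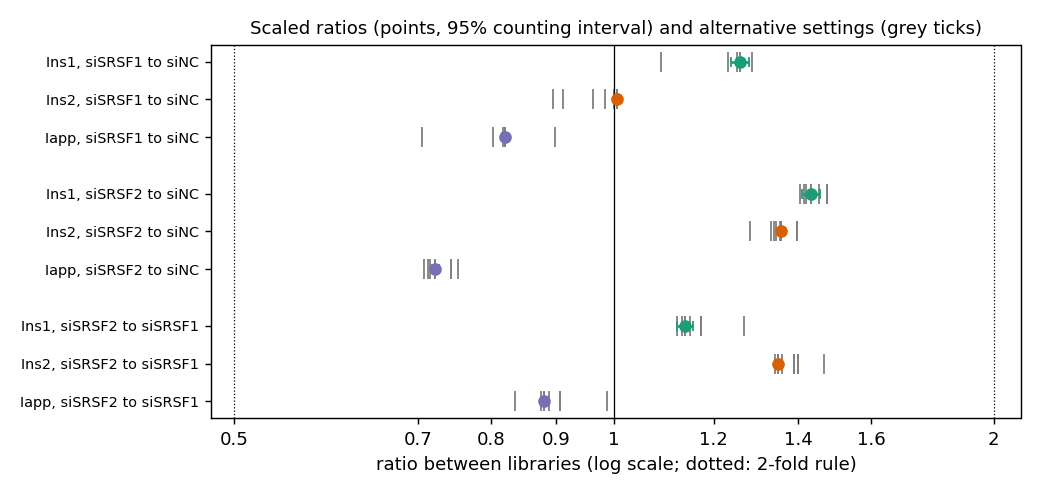
Ratio between libraries (x axis, log scale) of each member in the 3 comparisons, with points for the scaled ratio, bars for its 95% counting interval and grey ticks for the alternative settings. All values lie inside the dotted lines of the 2-fold rule, and the ticks cross 1 for Ins2 in siSRSF1 to siNC alone.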

How the data were processed

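RNA of 1 MIN6 library per group was sequenced. Per the labels, RNA was extracted with Trizol and libraries followed a Lifetech protocol. Per the submitters' processing notes, Bowtie2 2.4.2 and the build mm10 (GRCm38) were used. Not given in the sources used here: counting tool, strand setting, read length, filters and treatment of reads that match several genes. The deposited read counts are whole numbers with no normalisation, per the file headers. The deposited FPKM values equal the count divided by length and column total within 0.00045 percent. The length equals the union of GENCODE M21 exons for 98.2% of lines. From the 21935 lines, those sharing a symbol (67) were summed.

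The counts were scaled by TMM in edgeR 4.0.16 (R 4.3.3). Ratios used a prior of 0.5 reads, and their intervals, like those of shares, are Clopper-Pearson intervals at 95% (scipy 1.17.1). Ratios of ratios used the conditional exact interval of a table of counts. PCR reads without molecular identifiers are not independent molecules, so intervals cover counting error only. Genes with at least 20 reads in 1 library of a pair were compared. The size rules were 2-fold and 1.2-fold with an interval that excludes 1. With 1 library per group there is no test and no p-value. GC and length corrections used lowess (fraction 0.3, statsmodels 0.14.6), with GC for 99.5% of symbols. Coding sequences were aligned with Biopython 1.88. The ratio script was tested on simulated data. Alternatives were library totals, DESeq2 1.42.0 size factors, upper-quartile scaling, totals without the 3 genes or mitochondrial genes, GC and length correction, other read minimums and priors, and other gene lengths.

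The members and gene lists were chosen with earlier results of these data known. Named genes were the members, list genes past 2-fold, the 3 of most reads in siNC of each list, the 5 closest in ratios, the chromosomal neighbours and the targeted genes. Elavl4, Manf and the marker genes named follow from these rules or lists. Outside these rules, Pam and Calcr were named, after their values were seen, for their link to amylin. Neurod1 is also outside these rules and was given as the shared regulator named beside PDX1. Ero1b and Ero1a are listed under the older names Ero1lb and Ero1l. The value of 1 marker gene is not reported here.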

Additional observations from a re-analysis of the deposited data

How the results depend on the processing

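In siSRSF2 to siNC every alternative kept Ins1 and Ins2 above 1 and Iapp below 1, and in siSRSF1 to siNC every alternative kept Ins1 above and Iapp below 1. The direction of Ins2 in siSRSF1 to siNC did not hold. The intervals are narrow at these depths, so small shifts leave them, and the cause of the shifts was not tested. For siSRSF1 to siNC, Ins1 was 1.23 with upper-quartile scaling, 1.29 with GC correction and 1.09 with length correction. Ins2 was 1.001 with median-of-ratios scaling, 0.984 with upper-quartile scaling, 0.963 with GC correction, 0.911 with the GC content of the short Ins2 transcript (added after seeing the data) and 0.895 with length correction. Iapp was 0.803, 0.899 and 0.705 with upper-quartile scaling, GC and length correction. For siSRSF2 to siNC, library totals gave 1.48 for Ins1, 1.4 for Ins2 and 0.744 for Iapp, and the deposited FPKM gave the same to these digits. Length correction gave 1.41, 1.33 and 0.708. Median-of-ratios scaling gave 1.34 for Ins2 and 0.715 for Iapp, upper-quartile scaling 1.34 and 0.713, GC correction 0.752 for Iapp, and the GC content of the short Ins2 transcript 1.28 for Ins2. For siSRSF2 to siSRSF1, library totals and FPKM gave 1.17, 1.39 and 0.907 for Ins1, Ins2 and Iapp. GC correction gave 1.12, 1.4 and 0.835, with 1.4 also from the short Ins2 transcript, and length correction 1.27, 1.47 and 0.988. Upper-quartile scaling gave 1.36 for Ins2 and 0.888 for Iapp, and median-of-ratios scaling 1.34 for Ins2.

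With the longest transcript as length, Ins1 to Ins2 was 0.0641, 0.0802 and 0.0677 in siNC, siSRSF1 and siSRSF2, Iapp to Ins2 was 0.880, 0.718 and 0.468, and Iapp to Ins1 was 13.7, 8.95 and 6.92. The short Ins2 transcript (added after seeing the data) gave 0.0334, 0.0418 and 0.0353, then 0.458, 0.374 and 0.244, and again 13.7, 8.95 and 6.92. The order of Iapp and Ins2 in siNC therefore turned with both, which follows from the shorter length given to Ins2. After GC correction, Ins1 to Ins2 was 1.34 in siSRSF1 to siNC and 0.801 in siSRSF2 to siSRSF1. Iapp to Ins2 was 0.934 and 0.556 against siNC and 0.596 between the siRNA libraries, and Iapp to Ins1 was 0.698, 0.517 and 0.744. Without mitochondrial genes the shares of reads in siNC, siSRSF1 and siSRSF2 were 0.189%, 0.238% and 0.278% for Ins1, 2.55%, 2.56% and 3.54% for Ins2, and 2.05%, 1.68% and 1.52% for Iapp.

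GC correction left 1 insulin gene regulator past 2-fold in each siRNA library. Over all genes, the number past 2-fold followed the minimum of reads. Without a minimum, 431 were higher and 243 lower in siSRSF1 to siNC, 239 were lower in siSRSF2 to siNC and 436 were lower in siSRSF2 to siSRSF1. With a minimum of 100 reads, 122 were higher and 35 lower, 129 and 44, and 108 and 87 in the same 3 comparisons. No paired analysis was possible because each group has 1 library, and no library could be left out for the same reason.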

Other observations

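The transporter genes Slco1a5 and Slco1a6 beside Iapp were higher in both siRNA libraries, where Iapp was lower. Slco1a4 and Slco1a1, further along, had at most 1 read per library and were not compared. Slco1a5, whose annotated span holds Iapp on the other strand, had 17 reads in siNC, 109 in siSRSF1 and 69 in siSRSF2, with ratios of 5.50 and 3.34 (1.98 to 6.18). Its neighbour Slco1a6, another organic anion transporter, had 29, 315 and 63 reads, and ratios of 9.39 and 1.81 (1.16 to 2.94). No annotated Slco1a5 transcript shared an exact window of 50 bases with Iapp on either strand, so the overlap is one of gene spans. Whether counting used strand is not known, so reads of unspliced Slco1a5 RNA across Iapp could not be told apart from Iapp reads. On the other side, Golt1b, a Golgi transport gene, stood at 0.914 and 0.812, and Pyroxd1 and Recql had intervals that include 1 in both.

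Next to Ins2, Th, the tyrosine hydroxylase of catecholamine synthesis, had 5662, 8350 and 7405 reads, with ratios of 1.29 (1.25 to 1.34) and 1.10 (1.06 to 1.14). Trpm5, a cation channel of beta cells and taste cells, had ratios of 1.88 and 1.42. Cd81 and Mrpl23 had intervals that include 1. Around Ins1, Sorcs1 stood at 0.982 and 0.914, Xpnpep1 at 1.01 and 0.911, and Add3 at 0.919 and 1.41.

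Genes of the reception and breakdown of these hormones held 5 compared members, none past 2-fold. Ide, the insulin-degrading enzyme, had 2127, 1830 and 1900 reads, and ratios of 0.755 and 0.750. The insulin receptor gene Insr stood at 0.967 and 1.07 and Igf1r at 1.13 and 0.971. Calcr, the core of the amylin receptor, had 1, 1 and 0 reads.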
